A study of Homo sapiens with 12 samples.

Results

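Cancer-testis antigen genes are a set of germ cell genes that many tumors transcribe. The members described here are the gene names that begin with MAGEA, MAGEB, MAGEC, GAGE, PAGE, XAGE, SPANX, SSX, CT45A, CTAG1 or CTAG2. The rule took 81 of 22963 gene names in the expression table by name alone. One of the 81, SSX2IP on chromosome 1, encodes a protein that binds SSX2 and is not an SSX family gene, so it is given apart. The other 80 all lie on chromosome X and fall into 10 families, with 13 GAGE, 12 MAGEA, 11 MAGEB, 10 SPANX, 9 CT45, 8 SSX, 6 PAGE, 5 XAGE, 3 MAGEC and 3 CTAG genes.

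In healthy tissue these genes are transcribed in the germ line of the testis, and in part in placenta, and they stay silent in most somatic cells, where methylation of their promoters is a known means of silencing. Many are arranged in clusters of near-identical copies on chromosome X. The MAGE proteins carry a domain that binds RING ubiquitin ligases, CTAG1B encodes the tumor antigen NY-ESO-1, SPANX proteins are found in the nuclei of late spermatids, and SSX proteins act as transcriptional repressors.

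The study asked how the zinc finger transcription factor EGR1 acts in hepatocellular carcinoma (HCC) cells. The 12 RNA-seq libraries form 4 groups, each with 3 replicates. PLC/PRF5 hepatoma cells carried the empty vector (Vector) or EGR1 overexpression (EGR1), with the EGR1 coding sequence placed in a lentiviral plasmid with a CMV promoter. MHCC97H, a metastatic HCC line, was given as parental cells (Mock) or as cells labelled EGR1 knockout (EGR1_KO). Per the study's methods the knockouts were single CRISPR/Cas9 clones that were checked at the protein and DNA level, and the sources used here do not say which clone was sequenced. The labels number the libraries of a group as biological replicates without saying how they were separated, so that p-values measure only the spread between these libraries.

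EGR1 mRNA was given first as the check of the labels. Levels are FPKM, fragments per length of transcript and per number of fragments mapped. EGR1 stood at 1.97, 1.43 and 2.03 FPKM in Vector and at 56.3, 50.2 and 52.2 in the EGR1 group. In MHCC97H it stood at 20.2, 23.1 and 21.2 in Mock and at 35.2, 50.3 and 32.9 in the libraries labelled knockout. The mRNA was thus higher, not lower, in the latter, which are called the libraries labelled knockout throughout. The level of an mRNA does not show whether its protein was lost. Library totals lay between 376335 and 437652 FPKM, none of 20 housekeeping genes was listed at 0 in any library, and the number of reads is unknown. Of 17 hepatocyte markers, 16 had a mean of at least 1 FPKM in Vector and 11 in Mock.

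The promoters were read from RefSeq on GRCh38.p14, as 300 bases from 250 before to 50 after the first listed start of each gene. A window was found for 66 of the 81 genes, 65 without SSX2IP. Those of the pair MAGEA3 and MAGEA6 and of the trio SPANXA1, SPANXA2 and SPANXC are shown as close copies that line up without gaps. MAGEA6 and the trio are among the genes with large differences in the MHCC97H comparison, whereas MAGEA3 was not called there. SPANXB1, which also fell in that comparison, is not shown. Each line gives the 150 bases before the start, 5′ to 3′ on the strand of the gene. MAGEA3 lies at chrX:152698644-152698793 on the plus strand and MAGEA6 at chrX:152769690-152769839 on the minus strand. The capitals mark CCGGAA, the core that ETS factors bind.
MAGEA3: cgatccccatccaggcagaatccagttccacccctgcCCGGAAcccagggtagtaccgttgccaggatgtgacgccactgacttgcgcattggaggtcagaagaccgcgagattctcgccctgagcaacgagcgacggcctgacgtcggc
MAGEA6: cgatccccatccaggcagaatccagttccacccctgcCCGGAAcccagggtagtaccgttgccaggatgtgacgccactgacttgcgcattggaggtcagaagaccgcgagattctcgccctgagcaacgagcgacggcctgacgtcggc

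SPANXA1 lies at chrX:141584739-141584888 on the minus strand, SPANXA2 at chrX:141589558-141589707 on the plus strand and SPANXC at chrX:141242518-141242667 on the minus strand. The capitals mark the 2 bases at which the stretch of SPANXC differs from that of SPANXA1.
SPANXA1: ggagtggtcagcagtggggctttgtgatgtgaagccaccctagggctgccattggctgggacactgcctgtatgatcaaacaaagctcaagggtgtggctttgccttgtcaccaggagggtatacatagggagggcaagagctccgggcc
SPANXA2: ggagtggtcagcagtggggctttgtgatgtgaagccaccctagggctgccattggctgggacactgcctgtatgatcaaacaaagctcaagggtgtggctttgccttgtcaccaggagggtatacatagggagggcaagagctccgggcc
SPANXC: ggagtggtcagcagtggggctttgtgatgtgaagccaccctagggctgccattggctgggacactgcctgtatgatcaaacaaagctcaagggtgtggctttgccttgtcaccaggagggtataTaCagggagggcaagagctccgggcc

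Over the whole window MAGEA3 and MAGEA6 were identical at 300 of 300 bases, as were SPANXA1 and SPANXA2, whereas SPANXC differed from SPANXA1 at 5. SPANXB1 was further off and matched SPANXA1 at 255 of 340 aligned positions (75%), with 80 gap positions and 5 substitutions. The letters GCGNGGGCG, the EGR1 consensus, were searched on both strands and stood in 0 of the 65 member windows and in 9.28% of the first windows of 27305 genes. CCGGAA, on either strand, stood in 4 of 65 (6.15%) against 17.6% of all windows, in MAGEA3, MAGEA6, MAGEB6 and CT45A10. The palindrome CACGTG, an E-box, stood in 17 of 65 (26.2%) against 7.43%, namely in all 12 GAGE windows, 4 of 6 PAGE windows and XAGE3. The member windows held a median of 10 CpG dinucleotides and all windows 14, and the 9 SPANX windows held a median of 6. A match describes only these letters.

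The 2 lines differed in which families they transcribed. Summed over the 80 genes, the level was 987, 1145 and 995 FPKM in Vector, 952, 1232 and 1234 in EGR1, 174, 187 and 207 in Mock, and 53.7, 55.4 and 56.6 in the libraries labelled knockout. The sum made up 0.254% ± 0.0137 (SD, n = 3) of the FPKM of a library in Vector and 0.0499% ± 0.00412 in Mock. The MAGEA family held 53.9% to 57.1% of the sum in Vector, while in Mock the SPANX family held 62.5% to 67.6%. Of the 80 genes, 35 had a group mean of at least 1 FPKM in PLC/PRF5 and 12 in MHCC97H, with 7 in both (MAGEA3, MAGEA6, MAGEB2, MAGEC1, MAGEC2, SPANXB1 and GAGE2A). The 5 that reached this mean in MHCC97H alone were SPANXA1, SPANXA2, SPANXC, GAGE12F and GAGE12G. The 2 GAGE genes lay near the cut and were above 0 in all 6 PLC/PRF5 libraries. They stood there between 0.185 and 1.06 FPKM (GAGE12F) and between 0.195 and 0.622 (GAGE12G). Of the 28 that reached it in PLC/PRF5 alone, 16 were listed at 0 in all 6 MHCC97H libraries.

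Many members are close copies. Cut into windows of 100 bases, 35 of the 80 genes shared more than 50% of their transcript windows with other annotated genes. MAGEA2 and MAGEA2B, SSX2 and SSX2B, XAGE1A and XAGE1B, and SPANXA1 and SPANXA2 share 97.8% to 100% of theirs, so the split of reads within these pairs is uncertain and their sum is the safer value. The split is also uncertain for other genes given singly below. The shared part was 100% for CT45A7 and GAGE12G, 93.0% for CT45A2, 89.7% for MAGEA9 and 84.0% for CT45A1. It was 83.7% for CTAG1A and 83.2% for CTAG1B.

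The MAGEA genes, whose products bind ubiquitin ligases such as TRIM28, reached the highest levels. MAGEA4 stood at 185, 209 and 209 FPKM in Vector and at 154, 194 and 190 in EGR1, and in MHCC97H it was listed at 0 in 5 of 6 libraries and at 0.0406 in the other. MAGEA3 stood at 87.9, 98.98 and 91.5 in Vector, 98.8, 117 and 117 in EGR1, 31.9, 32.1 and 32.6 in Mock, and 31.2, 31.7 and 35.9 in the libraries labelled knockout. MAGEA6 stood at 64.9, 77.9 and 65.0 in Vector, 73.2, 91.8 and 90.8 in EGR1, 22.6, 21.0 and 23.0 in Mock, and 4.46, 3.46 and 2.28 in the libraries labelled knockout. MAGEA3 and MAGEA6 were the only MAGEA genes with a mean of at least 1 FPKM in MHCC97H.

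Next in the family came the cluster mates of MAGEA3. MAGEA2B stood at 50.3, 54.3 and 47.0 FPKM in Vector and at 58.6, 72.9 and 79.8 in EGR1. MAGEA2 stood at 39.0, 41.2 and 37.1 in Vector and at 41.9, 53.0 and 49.4 in EGR1. MAGEA12 stood at 50.9, 58.7 and 50.4 in Vector and at 52.3, 61.4 and 64.4 in EGR1. All 3 stayed at or under 0.185 FPKM in MHCC97H, and they lie between MAGEA3 and MAGEA6 on the chromosome.

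Of the remaining MAGEA genes, MAGEA10 stood at 29.4, 35.8 and 32.7 FPKM in Vector and at 32.4, 34.6 and 36.0 in EGR1. MAGEA8 stood at 22.1, 26.04 and 22.6 in Vector and at 19.7, 22.5 and 24.2 in EGR1. Both were listed at 0 in all MHCC97H libraries. MAGEA1, the founding member of the family, stood at 8.07, 9.53 and 8.06 in Vector, 5.68, 6.36 and 8.20 in EGR1, 0.506, 0.457 and 0.325 in Mock, and 0.104, 0.0963 and 0.132 in the libraries labelled knockout. MAGEA9 stood at 2.08, 2.50 and 2.35 in Vector and at 1.89, 2.11 and 2.49 in EGR1. It was listed at 0 in 5 of the 6 MHCC97H libraries.

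Outside the MAGEA family, CTAG2, which encodes the antigen LAGE-1, was the most abundant, at 129, 146 and 116 FPKM in Vector and 114, 148 and 151 in EGR1. CTAG1B stood at 8.62, 11.1 and 7.81 in Vector and at 6.37, 7.71 and 8.23 in EGR1. CTAG1A, its second copy, stood at 6.52, 8.54 and 6.01 in Vector and at 4.93, 9.90 and 5.82 in EGR1. All 3 CTAG genes were listed at 0 in Mock and stayed at or under 0.12 in the libraries labelled knockout.

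The XAGE1 genes, whose transcripts share all their windows, spread widely between libraries of a group. XAGE1A stood at 79.0, 103 and 74.5 FPKM in Vector and at 80.4, 119 and 120 in EGR1. XAGE1B stood at 65.1, 86.1 and 63.3 in Vector and at 56.6, 103 and 106 in EGR1. EGR1 replicate 1 was the lowest and Vector replicate 2 the highest of its group for both copies.

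PAGE5 stood at 23.4, 27.8 and 18.1 FPKM in Vector and at 21.5, 32.8 and 32.5 in EGR1. PAGE1 stood at 2.89, 2.53 and 3.26 in Vector and at 2.58, 2.88 and 3.79 in EGR1. All 6 PAGE genes were listed at 0 in Mock.

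SSX2, a repressor whose gene is a fusion partner in synovial sarcoma, stood at 13.9, 19.5 and 16.8 FPKM in Vector and at 13.9, 22.1 and 26.2 in EGR1. Its copy SSX2B stood at 23.4, 21.5 and 23.1 in Vector and at 25.3, 24.4 and 20.7 in EGR1. In MHCC97H both were listed at 0. SSX1 alone of the 8 SSX genes was above 0 there, at 0.700, 0.543 and 0.468 in Mock and 0.322, 0.117 and 0.182 in the libraries labelled knockout.

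CT45 genes were transcribed in PLC/PRF5 alone, and all 9 were listed at 0 in the 6 MHCC97H libraries. CT45A1 stood at 7.18, 8.14 and 9.19 FPKM in Vector and at 7.22, 11.0 and 8.98 in EGR1. CT45A10 stood at 4.62, 5.31 and 6.18 in Vector and at 7.09, 8.79 and 6.05 in EGR1. CT45A7 stood at 1.92, 2.26 and 2.83 in Vector and 3.00, 1.89 and 2.41 in EGR1, and CT45A2 stood at 1.80, 2.20 and 2.95 in Vector and 2.41, 2.52 and 2.18 in EGR1. Another 4 CT45 genes (CT45A3, CT45A5, CT45A6 and CT45A8) had a group mean of at least 1, with libraries between 0.544 and 2.07.

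MAGEB2 was the single MAGEB gene at a mean of 1 FPKM or more, at 37.6, 41.5 and 39.7 in Vector, 30.1, 30.9 and 29.5 in EGR1, 0.337, 0.558 and 0.421 in Mock, and 1.31, 1.14 and 1.28 in the libraries labelled knockout. MAGEC2, a partner of TRIM28, stood at 13.8, 15.4 and 12.8 in Vector, 11.8, 14.0 and 12.9 in EGR1, 3.95, 3.30 and 4.54 in Mock, and 7.42, 7.18 and 7.60 in the libraries labelled knockout. The GAGE family stayed low in both lines, with sums between 2.36 and 7.10 FPKM per library. Genes with a group mean between 0.1 and 1 were 7 GAGE genes, 2 MAGEB genes (MAGEB6, MAGEB17), SSX1 and SSX4, MAGEA11, PAGE2, SPANXD and CT45A9, with libraries between 0 and 1.17. Another 25 genes stayed under a mean of 0.1, and 15 of those were listed at 0 in every library.

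3 SPANX genes went the other way between the lines. SPANXA2 stood at 0.0908, 0.423 and 0.482 FPKM in Vector and 0.147, 0.635 and 0.276 in EGR1, against 49.4, 61.0 and 67.7 in Mock. SPANXA1 stood at 0.0577, 0.391 and 0.256 in Vector and 0.223, 0.376 and 0.246 in EGR1, against 36.8, 41.6 and 48.4 in Mock. SPANXC stood at 0.244, 0.267 and 0.355 in Vector and 0.764, 0.530 and 0.289 in EGR1, against 14.0, 10.8 and 11.4 in Mock. SPANXB1 stood at 9.52, 9.31 and 7.07 in Vector, 8.40, 12.4 and 10.6 in EGR1, and 8.24, 9.46 and 12.3 in Mock. SPANXD stayed at or under 0.716, and the 5 SPANXN genes were listed at 0 throughout.

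Mock MHCC97H and Vector PLC/PRF5 were compared with limma, on the scale of log2(FPKM + 1), for genes whose FPKM averaged 1 or more over the 6 libraries. Adjusted p-values are Benjamini-Hochberg values over all genes tested with a threshold of 0.05. The cell line and whatever else differed between the 2 sets of libraries cannot be told apart. Of 31 members tested (30 without SSX2IP), 4 were higher and 26 lower in Mock, so that 30 were called, where 79.8% of all 12046 genes tested were called, 38.8% higher and 40.9% lower. The groups did not overlap for 30 of the 31, against 81% of all genes tested. The filter let most of these members through by the line in which they are high, so that the count does not describe the family as a whole. Those higher in Mock were SPANXA2 (log2 fold change 5.50, SE 0.16, adjusted p = 7.86e-09), SPANXA1 (5.13, SE 0.14), SPANXC (3.33, SE 0.11) and MAGEC1 (0.40, SE 0.12, adjusted p = 0.0160). MAGEC1 stood at 1.84, 1.80 and 1.54 FPKM in Mock and at 1.41, 0.765 and 1.06 in Vector. Among genes present in both lines, MAGEA3 was lower in Mock by a log2 fold change of -1.50 (SE 0.08), MAGEA6 by -1.59 (SE 0.09) and MAGEC2 by -1.61 (SE 0.12). With quantile normalization the adjusted p of MAGEC1 was 0.0701, which ended its call. SPANXB1 was the member that was not called, at 0.18 (SE 0.16, adjusted p = 0.309), and with a spline correction for the GC content and length of transcripts it was called, at 0.60 (adjusted p = 3.56e-04).

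The libraries labelled knockout were compared with Mock in the same way. Mock were parental cells, so the editing of EGR1, the virus infection and the growth from a single cell cannot be told apart here. The 4 SPANX genes transcribed in Mock fell, and the family sum went from 108, 123 and 140 FPKM in Mock to 4.31, 5.13 and 5.09. SPANXA2 fell to 2.01, 2.46 and 0.609 FPKM, SPANXA1 to 1.47, 2.24 and 3.22, and SPANXC to 0.239, 0.292 and 1.16. SPANXB1 stood at 0.264 in 1 library and was listed at 0 in the other 2. For each of these 4 genes the lowest Mock library lay above the highest library labelled knockout.

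By limma the log2 fold change was -4.55 for SPANXA2 (SE 0.25, adjusted p = 6.86e-06) and -3.74 for SPANXA1 (SE 0.19, adjusted p = 3.18e-06). It was -3.33 for SPANXB1 (SE 0.16, adjusted p = 2.98e-06) and -3.10 for SPANXC (SE 0.21, adjusted p = 1.72e-05). These values are on the log2(FPKM + 1) scale and understate the change of genes near 0. The copies SPANXA1 and SPANXA2 share all their windows, and their mean levels in the 2 groups were 42.3 and 2.31 FPKM for SPANXA1 and 59.3 and 1.69 for SPANXA2. They are counted as 2 members below but are not separate measurements. The sum of SPANXA1, SPANXA2 and SPANXC went from 100.1, 113.4 and 127.5 FPKM in Mock to 3.72, 4.99 and 4.99, and it was not tested. In total 10 members were tested (9 without SSX2IP) and 6 called, 5 lower and 1 higher, where 66.3% of all 11577 genes tested were called, 31.5% lower and 34.8% higher (38.3% and 27.3% with the libraries scaled to the same total). SPANXC and SPANXB1 passed the filter through Mock alone, as their means in the libraries labelled knockout were 0.563 and 0.088 FPKM. Part of the count of lower members was thus set by the filter. The share of members called is close to that of all genes, and the groups did not overlap for 8 of the 10 members against 71.8% of all genes tested.

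**Figure D1:**
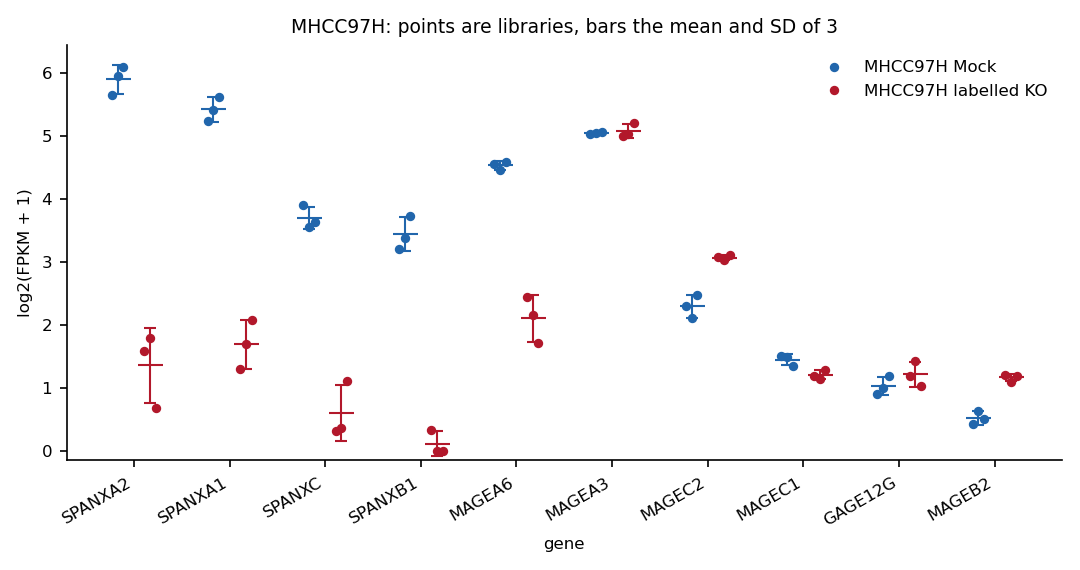
Levels of 10 cancer-testis antigen genes in MHCC97H as log2(FPKM + 1), with a point per library (3 Mock, 3 labelled knockout, spread sideways for legibility) and the mean with its SD. The 4 SPANX genes and MAGEA6 are lower in all 3 libraries labelled knockout, MAGEC2 and MAGEB2 are higher in all 3, and the points of MAGEA3 and GAGE12G overlap.

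MAGEA6 fell while MAGEA3 did not pass the test. MAGEA6 went from a mean of 22.2 to 3.402 FPKM, a log2 fold change of -2.43 (SE 0.17, adjusted p = 1.93e-05), with no overlap between the groups. MAGEA3 had means of 32.2 and 33.0, a log2 fold change of 0.03 (SE 0.09, adjusted p = 0.770), and its groups overlapped. With the GC and length correction its value was -0.34 (adjusted p = 0.00151), so that the direction of MAGEA3 depends on that correction, whereas MAGEA6 then stood at -2.78. MAGEA6 made up 41.4%, 39.6% and 41.4% of the sum of both genes in Mock and 12.5%, 9.84% and 5.97% in the libraries labelled knockout. In the 6 PLC/PRF5 libraries its share lay between 41.5% and 44.1%. The pair share 36.1% of their 100-base windows, and the sequences shown above are the same for both.

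**Figure D2:**
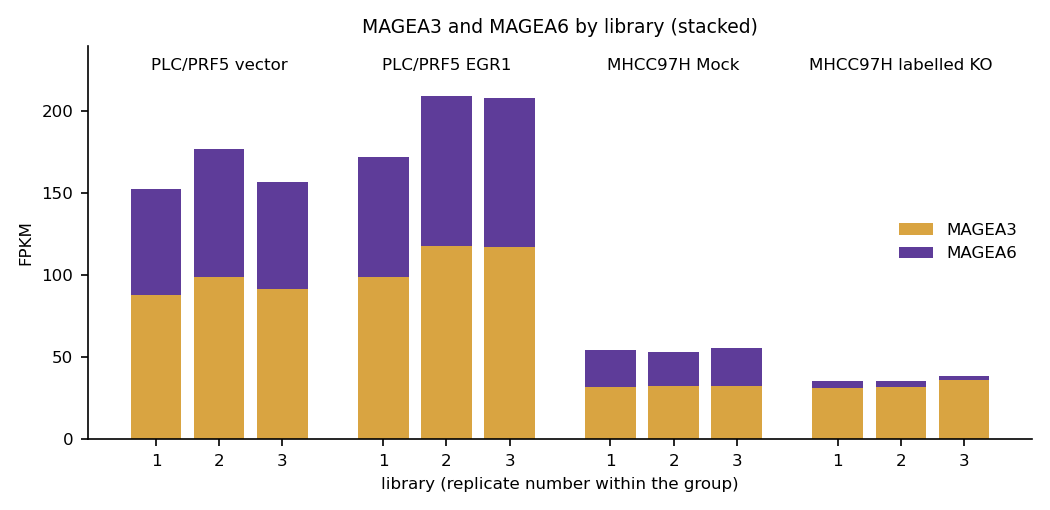
FPKM of MAGEA3 and MAGEA6 stacked for each of the 12 libraries. MAGEA6 holds about the same part of each bar in the Vector, EGR1 and Mock libraries, and a small part in the 3 libraries labelled knockout (12.5% or less).

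Among the members tested MAGEC2 rose, by a log2 fold change of 0.78 (SE 0.12, adjusted p = 5.11e-04), from a mean of 3.93 to 7.40 FPKM without overlap. MAGEC1 had a log2 fold change of -0.24 (SE 0.11, adjusted p = 0.0868), its 3 libraries labelled knockout lay below the 3 Mock libraries, and with the GC and length correction it was called (-0.37, adjusted p = 0.0156). With that correction 7 members were lower and 1 higher, where 23% and 24.5% of all genes tested were. GAGE12G had a log2 fold change of 0.18 (SE 0.14, adjusted p = 0.274). MAGEB2 lay below the filter, its 3 libraries labelled knockout lay above the 3 Mock libraries, and in the fit without the filter its log2 fold change was 0.64 (adjusted p = 0.00189). GAGE2A, also below it, stood at 1.55, 2.08 and 0.649 in Mock and at 0.372, 0.158 and 0.0990 in the libraries labelled knockout. In the fit without the filter its log2 fold change was -0.96 (adjusted p = 0.0184). MAGEA1 and SSX1, below the filter as well, were lower in all 3 libraries labelled knockout at the levels given above. The fit without the filter called 2 members higher and 9 lower, where 22% and 20.8% of all genes tested were.

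Along chromosome X the SPANX genes that fell lie within 588 kb, and the table holds 10 genes placed between CDR1 and MAGEC2, a stretch that was chosen after its values were seen. CDR1, at the end before SPANXB1, stood at 2.66, 1.06 and 0.388 FPKM in Mock and at 0, 0 and 0.0633 in the libraries labelled knockout. LDOC1, between SPANXB1 and SPANXC, was listed at 0 in all 6 MHCC97H libraries and stood between 2.79 and 3.51 in PLC/PRF5. On the other side, MAGEC1 and MAGEC2 lie 320 and 619 kb from SPANXA1 and remained above 1 FPKM in all MHCC97H libraries, MAGEC1 lower and MAGEC2 higher in the libraries labelled knockout without overlap. SPANXD stood at 0.0785, 0 and 0.0913 FPKM in Mock and at 0.323, 0.142 and 0.0967 in the libraries labelled knockout, higher without overlap at a low level. Whether the genes of this stretch share a cause was not tested.

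Other cell type markers moved in the same comparison. Of 12 hepatocyte markers tested 9 were higher and 1 lower in the libraries labelled knockout, where 34.8% and 31.5% of all genes tested were. The summed level of the 17 markers went from between 1510 and 1888 FPKM to between 2331 and 2764. Most of that sum came from the keratins KRT8 and KRT18. KRT8 went from 970.5, 1085 and 1251 to 1752, 1638 and 1936 FPKM, and KRT18 from 473, 504 and 574 to 633, 567 and 704. ALB, which encodes albumin, rose from a mean of 0.885 to 15.2 FPKM (log2 fold change 3.11, SE 0.14, adjusted p = 1.61e-06). Not all hepatocyte markers rose. APOH went from 31.6, 28.95 and 26.4 FPKM in Mock to 24.1, 22.8 and 24.3 in the libraries labelled knockout. APOB, which lay below the filter, went from 1.40, 1.205 and 1.21 to 0.171, 0.128 and 0.151. APOA2 was listed at 0 in all MHCC97H libraries. Of 8 fibroblast markers only LUM was tested. It was lower, at 10.9, 7.40 and 7.77 FPKM in Mock and 1.23, 1.41 and 0.910 in the libraries labelled knockout, and it made up nearly all of the sum of the 8 markers in Mock, which lay between 7.53 and 10.9. Of 8 leukocyte markers 2 were tested, with 2 higher, and of 6 endothelial markers 2 were tested, with 1 higher and 0 lower. With the GC and length correction 1 leukocyte and 1 endothelial marker were higher. Of 13 germ cell defining genes 8 were listed at 0 in all Mock libraries, and the 2 tested (PRDM1 and SOHLH2) were lower. Their part in the SPANX and MAGEA6 values was not tested.

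**Figure D3:**
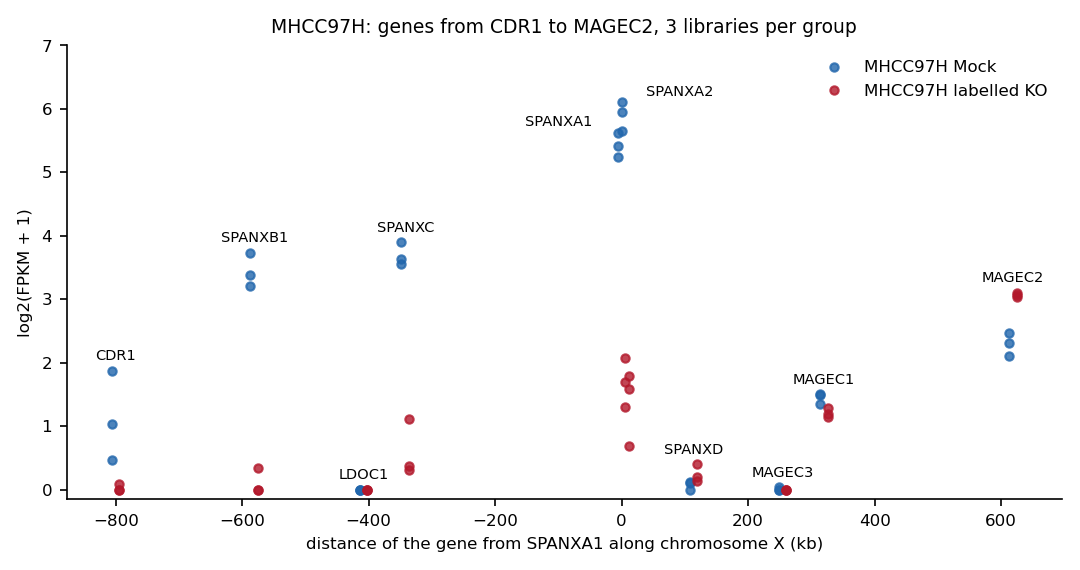
The 10 genes from CDR1 to MAGEC2 placed by their distance in kb from SPANXA1 on the horizontal axis, with log2(FPKM + 1) of each MHCC97H library on the vertical axis (groups set slightly apart). The Mock points of CDR1, SPANXB1, SPANXC, SPANXA1, SPANXA2 and MAGEC1 lie above those labelled knockout, and for MAGEC2 and, near 0, SPANXD the order is the reverse.

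With EGR1 overexpression in PLC/PRF5 few members passed the test. Of 33 members tested (32 without SSX2IP), 3 were called, namely MAGEA2B and SSX2IP higher and MAGEB2 lower, where 29.6% of all 11671 genes tested were called, 19.2% higher and 10.4% lower (13% and 15.1% with quantile normalization, and 16.4% and 17.4% with the GC and length correction). The groups did not overlap for 5 of the 33, against 47.7% of all genes tested. An unadjusted p under 0.05 was found for 9 of the 33, against 42.5% of all genes. Without SSX2IP the median log2 fold change of the members tested was 0.07, that of all genes tested was 0.09, and the members ranged from -0.38 to 0.46.

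MAGEB2 fell by 0.38 on the log2 scale (SE 0.08, adjusted p = 0.00891), from a mean of 39.6 to 30.2 FPKM, and each of the 3 EGR1 libraries lay below each Vector library. MAGEA2B rose by 0.46 (SE 0.12, adjusted p = 0.0212), from 50.5 to 70.4 FPKM, also without overlap. Leaving out Vector replicate 1 or 3 or EGR1 replicate 2 or 3 ended the call of MAGEA2B, with adjusted p between 0.0583 and 0.0818. Its near-identical copy MAGEA2 had a log2 fold change of 0.29 (SE 0.10, adjusted p = 0.0638), and the sum of both went from 89.3, 95.5 and 84.2 to 101, 126 and 129 FPKM. MAGEA3 (0.26, SE 0.10, adjusted p = 0.0815) and MAGEA6 (0.29, SE 0.12, adjusted p = 0.0898) missed the threshold, and with the GC and length correction MAGEA2, MAGEA3 and MAGEA6 passed it at adjusted p values of 0.00604, 0.00595 and 0.00908.

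The most abundant members did not pass the test. MAGEA4 had a log2 fold change of -0.17 (SE 0.11, adjusted p = 0.269), CTAG2 one of 0.07 (SE 0.13, adjusted p = 0.700) and XAGE1A one of 0.31 (SE 0.18, adjusted p = 0.210). EGR1 replicate 1 had the lowest sum of its group over the 80 genes, and without it 8 of 33 members were called higher, where 17.7% of all genes tested were then called higher. SSX2IP stood at 5.58, 8.37 and 6.94 FPKM in Vector and at 11.7, 11.1 and 10.7 in EGR1, a log2 fold change of 0.63 (SE 0.13, adjusted p = 0.00853), and with the GC and length correction the value was 0.24 (adjusted p = 0.0272). In MHCC97H it stood at 5.45, 4.75 and 4.26 in Mock and at 4.25, 3.70 and 2.10 in the libraries labelled knockout (-0.45, SE 0.19, adjusted p = 0.0590). With the correction the value of SSX2IP there turned to 0.23 (adjusted p = 0.169), and with the replicate number as a block it passed the test (adjusted p = 0.0162).

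**Figure D4:**
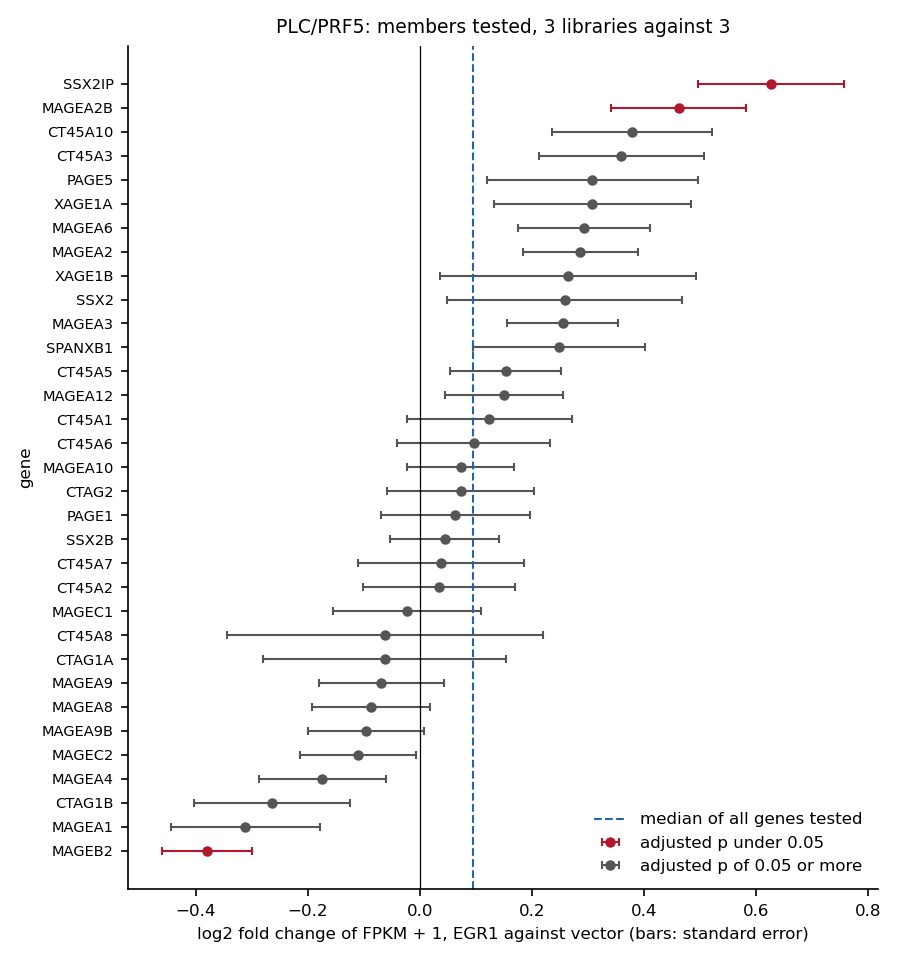
Log2 fold change of FPKM + 1, EGR1 against Vector in PLC/PRF5, for the 33 members tested, with the standard error as bars; red points have an adjusted p under 0.05 and the dashed line is the median of all genes tested. MAGEB2 lies at -0.38, MAGEA2B at 0.46 and SSX2IP at 0.63, and these are the 3 red points.

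Genes outside the rule were counted by list. Beside these counts, 19.2% of all genes tested were called higher and 10.4% lower in PLC/PRF5, and 34.8% and 31.5% in MHCC97H. With the GC and length correction the shares were 16.4% and 17.4% in PLC/PRF5 and 24.5% and 23% in MHCC97H. The same shares hold for each list that follows. Of 44 other cancer-testis genes 18 were tested in PLC/PRF5, with 4 higher and 1 lower in EGR1 (3 and 3 with the GC and length correction). SAGE1, an X-linked testis antigen, rose from 4.89, 6.51 and 5.76 to 8.95, 9.86 and 8.52 FPKM (log2 fold change 0.59, SE 0.11, adjusted p = 0.00612). In MHCC97H 10 were tested, with 2 higher and 7 lower in the libraries labelled knockout. Among those tested were CEP55, PBK, TTK, OIP5, ATAD2 and NUF2, which stood between 4.11 and 62.7 FPKM over all 12 libraries. The lower count thus rests in part on genes that both lines transcribe. IL13RA2, a decoy receptor for interleukin 13, rose from 5.998, 4.36 and 4.57 to 14.8, 21.2 and 16.2 FPKM (1.62, SE 0.15, adjusted p = 5.37e-05), and the mitotic kinase TTK fell from 20.6, 15.3 and 14.3 to 6.30, 10.7 and 7.49 (-0.96, SE 0.19, adjusted p = 0.00184). With the GC and length correction the counts there were 1 higher and 3 lower. Between the lines 18 were tested, with 6 higher and 10 lower in Mock, where 38.8% and 40.9% of all genes tested were. With the correction the counts were 4 and 10, where 39.2% and 41.6% were. PRAME stood at 25.1, 22.2 and 25.0 in Vector and at 0.166, 0.104 and 0.0128 in Mock. CSAG1 stood at 43.6, 48.5 and 43.4 against 0.120, 0.134 and 0.0604. CEP55 went the other way, at 11.7, 17.95 and 15.3 in Vector and 62.7, 55.0 and 46.6 in Mock.

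The type II MAGE genes, relatives that healthy tissues also express, were counted in the same way. Of 9 tested in PLC/PRF5, 0 were higher and 5 lower in EGR1 (1 and 5 with the GC and length correction). NDN, an imprinted growth regulator, fell from 21.2, 21.3 and 20.9 to 11.9, 10.8 and 11.7 FPKM (-0.83, SE 0.08, adjusted p = 3.35e-04). MAGED2 fell from 37.7, 37.9 and 37.4 to 23.2, 25.95 and 25.8 (-0.58, SE 0.08, adjusted p = 0.00183). Of 5 tested in MHCC97H, 3 were higher and 0 lower (2 and 0 with the correction), and MAGED2 rose there from 36.6, 36.0 and 41.1 to 59.7, 58.6 and 68.2 (0.70, SE 0.10, adjusted p = 3.01e-04). The difference between the 2 experiments was not tested.

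Of 9 ubiquitin ligase partners of MAGE proteins 8 were tested, with 1 higher and 2 lower in PLC/PRF5 (2 and 1 with the GC and length correction) and 3 higher and 3 lower in MHCC97H (1 and 3 with the correction). In MHCC97H 66.3% of all genes tested were called in either direction. TRIM28, a corepressor and MAGE partner, stood at 285, 258 and 267 FPKM in Vector and 232, 207 and 207 in EGR1 (-0.33, SE 0.09, adjusted p = 0.0307), a call that was lost with the correction (-0.21, adjusted p = 0.0508). In MHCC97H it stood at 186, 193 and 198 in Mock and 271, 248 and 298 in the libraries labelled knockout (0.49, SE 0.09, adjusted p = 0.00158), and the correction turned the latter to -0.15. TRIM31, a RING ubiquitin ligase, rose in EGR1 from 3.65, 3.496 and 3.70 to 7.88, 9.11 and 9.36 (1.08, SE 0.10, adjusted p = 2.07e-04).

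Of 28 genes of DNA methylation and silencing, 27 were tested in PLC/PRF5, with 8 higher and 2 lower in EGR1 (3 and 2 with the GC and length correction). In MHCC97H 25 were tested, with 7 higher and 10 lower (3 and 8 with the correction), where 34.8% and 31.5% of all genes tested were. SUZ12, a subunit of the Polycomb complex PRC2, fell in MHCC97H from a mean of 29.01 to 12.5 FPKM (-1.16, SE 0.22, adjusted p = 0.00146). ZBTB33, a reader of methylated DNA, fell from 19.4 to 8.12 (-1.18, SE 0.18, adjusted p = 4.88e-04), and PCGF6, a subunit of a Polycomb complex that acts on germ line genes, fell from 12.4 to 6.05 (-0.93, SE 0.13, adjusted p = 3.16e-04). The values of SUZ12, ZBTB33 and PCGF6 are without the GC and length correction. Other genes of the list stood higher in all 3 libraries labelled knockout. DNMT1 went from 30.6, 32.8 and 35.7 to 48.0, 41.6 and 44.8 FPKM, and L3MBTL2 from 6.77, 7.58 and 8.655 to 12.96, 11.35 and 13.55. The part of this list in the levels of the cancer-testis antigen genes was not tested.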

How the data were processed

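RNA was selected with oligo(dT) beads from 12 libraries of PLC/PRF5 and MHCC97H cells. The authors deposited FPKM per gene name, made with StringTie on hg38 per the submitters' processing notes. The aligner, annotation and versions are not given in the sources used here. The FPKM give no read numbers, so no counting interval was computed. All 12 columns were used, and groups came from the sample labels. Near-identical copies may share reads.

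Members and gene lists were chosen with earlier results of these data known. Values were transformed to log2(FPKM + 1) and tested 2-sided with limma 3.58.1 (R 4.3.3, intensity trend), 6 libraries per comparison, keeping genes whose FPKM averaged 1 or more. Adjustment over all genes tested followed Benjamini and Hochberg (threshold 0.05). For a single gene the smallest p of an exact permutation test of 3 against 3 is 0.1. Mock against Vector used the same libraries as the other comparisons.

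The 30 members with the highest group mean were given per library, and other genes were named from lists by the 3 largest changes per list and comparison past the threshold without overlap; those in the text are a part of these. Coordinates and transcripts came from GENCODE release 29 (GRCh38), and promoters from RefSeq (GRCh38.p14). Alternatives were a pseudocount of 0.1, no filter on the mean, equal totals, quantile normalization, no trend, all 12 libraries in one fit, a threshold of 0.01, a 2-fold minimum, the replicate number as a block, a spline correction (5 degrees of freedom) for GC content and length, and leaving out each library. Figures and promoter searches used Python 3.11.15 (matplotlib 3.10.9).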

Additional observations from a re-analysis of the deposited data

How the results depend on the processing

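Of members called in the main comparisons, 2 were higher and 1 lower in EGR1 against Vector, 1 higher and 5 lower in the libraries labelled knockout against Mock, and 4 higher and 26 lower in Mock against Vector. In PLC/PRF5 the count of higher members was 1 with no filter on the mean (9.39% of all genes tested were then called higher), 5 with equal totals (16.6%), 5 with quantile normalization (13%), 6 with all 12 libraries in one fit (20.7%), 1 at a threshold of 0.01 (7.69%), 0 at a 2-fold minimum (1.19%), 5 with the GC and length correction (16.4%) and 6 with that correction and the block (15%). It was 1 without SSX2IP, an alternative chosen after seeing the data. The count of lower members there was 2 with quantile normalization (15.1% of all genes) and 0 at a 2-fold minimum (0.574%). In MHCC97H the counts were 2 higher and 9 lower with no filter on the mean (22% and 20.8% of all genes) and 0 higher at a 2-fold minimum (5.13%), and between the lines 46 were lower with no filter (32.5%). Leaving out 1 library gave 1 to 8 higher and 1 to 2 lower in PLC/PRF5, with 8 higher without EGR1 replicate 1 (17.7%), 4 without Vector replicate 2 (23.7%), and 2 lower without EGR1 replicate 3 (7.36%). It gave 1 higher (30.2% to 34.6% of all genes) and 5 to 6 lower (25.4% to 30.9%) in MHCC97H. Between the lines it gave 4 to 5 higher (34.9% to 39.9%) and 22 to 27 lower (37.8% to 41.2%). MAGEA3 in MHCC97H turned to -0.34 under the GC and length correction and to -0.34 with the block added, and MAGEA6 and the 4 SPANX genes stayed lower and past the threshold under every alternative run. The causes were not tested. Equal totals moved the median log2 fold change of all genes in MHCC97H from 0.02 to -0.11.

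The deviations of same-numbered libraries from their group means had correlations of -0.13, 0.14 and -0.08 in PLC/PRF5 and 0.03, 0.03 and 0.47 in MHCC97H. For replicate 3 in MHCC97H the mean correlation with libraries of other numbers was -0.26. With 3 libraries per group these values cannot show whether the numbers pair the libraries. With the replicate block 2 members were higher and 1 lower in PLC/PRF5 (18.6% and 9.31% of all genes tested). In MHCC97H 1 was higher and 6 lower (35.7% and 33.3%), where SSX2IP was added. Between the lines 4 were higher and 26 lower (37.5% and 39.3%). The unknown depth limits statements on genes listed at 0.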
